A study of Homo sapiens with 7 samples.

Results

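Peaks of 6 chromatin marks were examined at 6 genes that drive or restrain the cell cycle, in the breast cancer cell line T-47D, which is of luminal type. The drivers were CCND1 and MYC, and the inhibitors were CDKN1A, CDKN1B, CDKN2A and CDKN2B. Each gene was taken with 50 kb on each side, and the neighbours CDKN2A and CDKN2B were taken as 1 interval, which gave 5 windows of 574.0 kb in all. These windows held 91 of the 285703 peaks on chromosomes 1 to 22 and X, 53 at the drivers and 38 at the inhibitors.

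The series was designed to ask how histone modification bears on gene regulation in this line. Every library came from T-47D cells grown in medium with serum, with no treatment or second line named, so no comparison between conditions can be made. There was 1 chromatin immunoprecipitation library, and 1 peak list, for each of H3K4me2, H3K27ac, H3K36me3, H3K27me3, H2A.Z and H3K9me3, and the input library was not analysed here. With no replicate, no value below carries a test, and the 2 driver and 3 inhibitor windows are loci, not replicates. A window without a peak may hold signal below the authors' threshold.

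The lists labelled H2A.Z and H3K9me3 ran against the usual pattern of those marks over the whole genome. Of 52188 peaks labelled H2A.Z, 24 overlapped H3K27ac and 7716 (14.8%) overlapped H3K27me3. Of the 20451 peaks labelled H3K9me3, 30.4% overlapped H3K27ac and 35.3% overlapped H3K4me2. Both are therefore called by their label throughout.

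As background, CCND1 encodes cyclin D1, which binds and activates the kinases CDK4 and CDK6 so that the retinoblastoma protein is phosphorylated and cells leave G1. MYC is a transcription factor that promotes growth and entry into the cycle. CDKN1A and CDKN1B encode inhibitors of cyclin and CDK complexes, CDKN2B and CDKN2A encode inhibitors of CDK4 and CDK6, and CDKN2A also encodes ARF, which acts on the p53 pathway. Among the marks, H3K4me2 and H3K27ac lie at active promoters and enhancers, H3K36me3 over transcribed gene bodies, and H3K27me3 in chromatin repressed by Polycomb.

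Every window held H3K4me2, H3K27ac and H3K36me3, and none held a peak labelled H2A.Z. H3K27me3 was found at MYC alone among the 5. As a background for these counts, the analysed genome was divided into consecutive tiles of 110 kb. H3K4me2 was in 5 of 5 windows and in 69.4% of tiles, H3K27ac in 5 of 5 and 40.3%, and H3K36me3 in 5 of 5 and 32.1%. H3K27me3 was in 1 of 5 windows and 35.7% of tiles. The list labelled H2A.Z was in 0 of 5 and 37.9%, and the list labelled H3K9me3 in 3 of 5 (CCND1, MYC and CDKN1A) and 43.0%. Tiles are not centred on genes, and 24.5% of them held H3K4me2, H3K27ac and H3K36me3 together. Within those tiles H3K27me3 was found in 25.7%, the list labelled H2A.Z in 20.8% and the list labelled H3K9me3 in 65.9%.

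**Figure D1:**
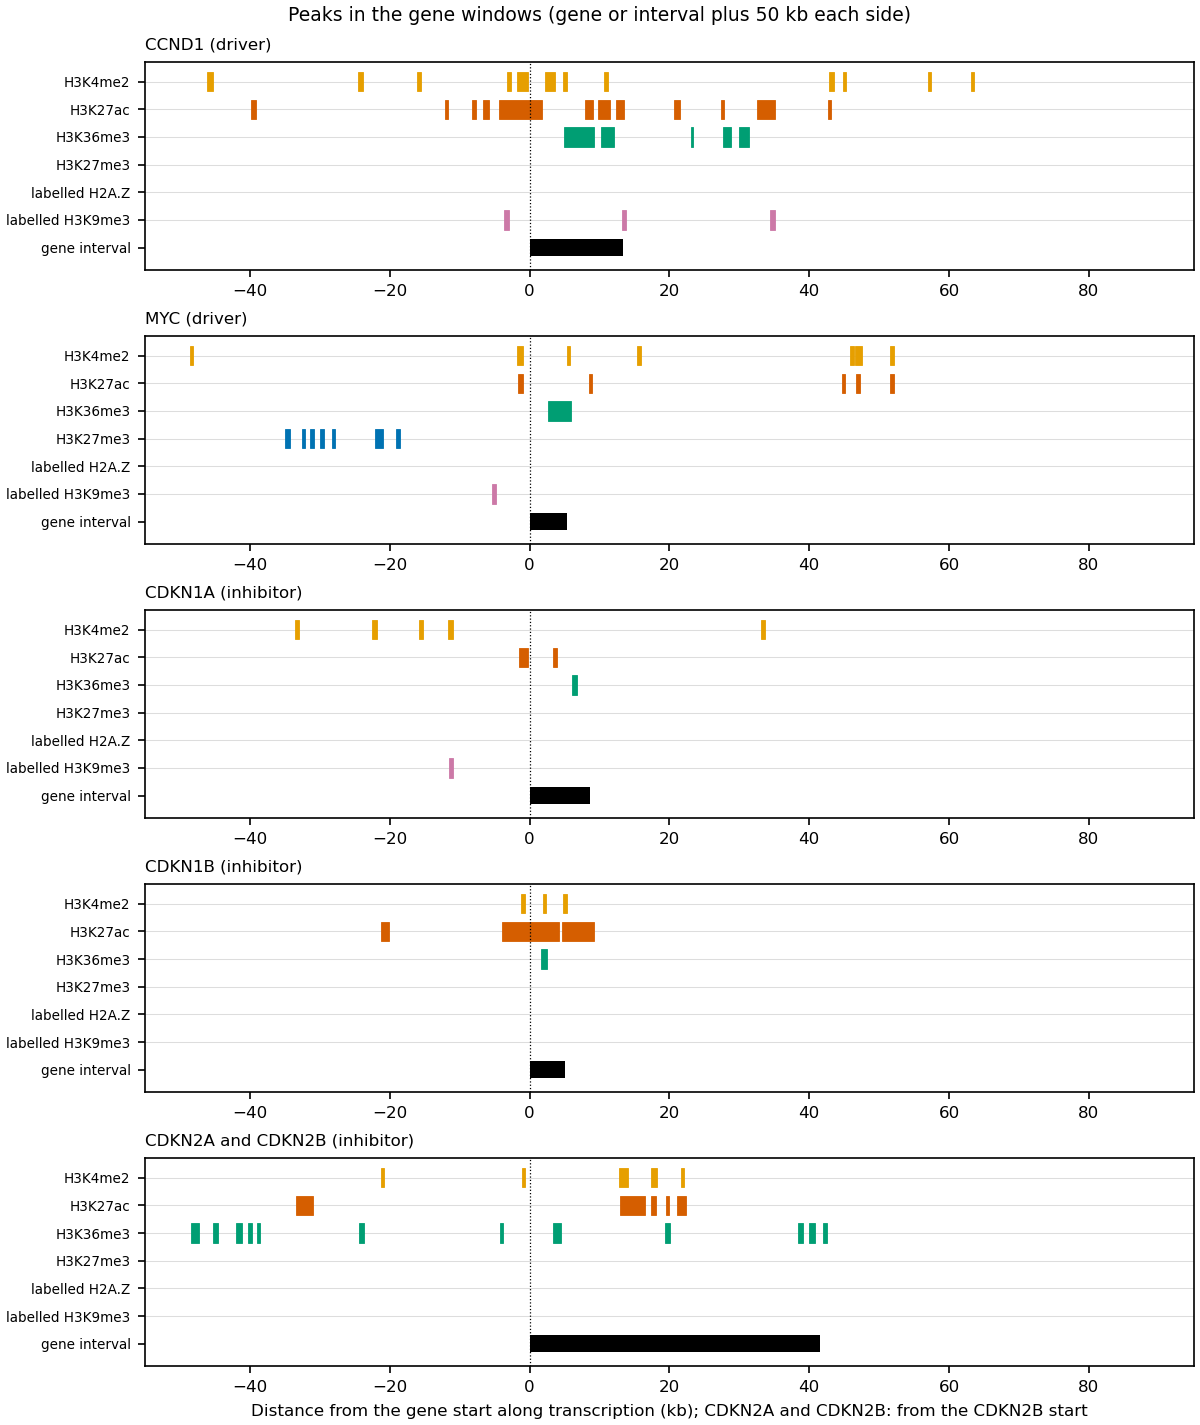
Peaks of the 6 lists (rows, coloured boxes drawn to scale in width) in the 5 windows, against distance in kb from the gene start along the direction of transcription; the black bar is the gene or, for CDKN2A and CDKN2B, the joint interval. H3K27me3 boxes appear upstream of MYC, and the row labelled H2A.Z is empty in all 5 windows.

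CCND1 was the most densely marked of the 5 loci. It held 32 peaks of 4 lists, which covered 25.6% of its window, and the other 4 windows were covered over 5.25 to 13.2%. H3K27ac covered 15.0% of the CCND1 window in 12 peaks, 11.6 times its share of the analysed genome, and 0.88% of 24421 consecutive tiles of the same length were covered as much. The gene lies on chromosome 11 (69455873 to 69469242), and the widest H3K27ac peak (69451547 to 69457624, 6078 bp) spanned its start. Only 338 of the 31453 H3K27ac peaks were at least that wide.

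Around the CCND1 start the acetylated peak reached 4326 bp upstream, and 2 H3K4me2 peaks lay within it. The wider of them (69454024 to 69455683, 1660 bp) ended 190 bp before the start. The next H3K4me2 peak (69458118 to 69459438, 1321 bp) began 2245 bp after the start and past the acetylated peak, so none covered the start itself. Further into the gene came H3K36me3, in peaks of 4367 bp (69460779 to 69465145) and 1943 bp (69466067 to 69468009) that covered 47.2% of the gene body. Its first peak began 4906 bp after the start, beyond the end of the acetylated peak. H3K27ac returned over the 3′ part of the gene in 3 peaks (1063, 1713 and 1048 bp), the first and second of which overlapped H3K36me3. In all, H3K27ac covered 41.2% of the CCND1 gene body and H3K4me2 17.4%.

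Outside the gene, CCND1 had 4 upstream and 4 downstream H3K27ac peaks. The widest was downstream (69488378 to 69491033, 2656 bp), 32.5 kb from the start. The list labelled H3K9me3 had 3 peaks in this window, at 69452195 to 69452879, 69469122 to 69469622 and 69490317 to 69490994. All 3 overlapped H3K27ac, and the first also overlapped H3K4me2. In the whole list labelled H3K9me3, 30.4% of peaks overlapped H3K27ac and 35.3% H3K4me2. Over the 5 windows 3 of 5 overlapped H3K27ac, and the exact interval (14.7 to 94.7%) includes the share of the whole list. Just outside the window, H3K27me3 began 1.06 kb beyond its downstream edge. In the 50 to 250 kb beyond the gene it covered 8.81% (50 to 100 kb, 6 peaks) and 8.54% (100 to 250 kb, 19 peaks), so the empty H3K27me3 row at CCND1 depends on the size of the window.

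MYC, the other driver, had smaller peaks near the gene and less of its window covered by H3K4me2, H3K27ac and H3K36me3 than CCND1. It lies on chromosome 8 (128748315 to 128753680). H3K4me2 covered 4.15% of the window in 7 peaks and H3K27ac 2.63% in 5 peaks, of which the widest had 636 bp. That peak (128746683 to 128747318) lay inside an H3K4me2 peak of 809 bp (128746524 to 128747332), and both ended about 1 kb before the start (997 and 983 bp). No H3K27ac peak touched the MYC gene body. H3K36me3 had 1 peak (128750984 to 128754240, 3257 bp), which covered 50.3% of the gene and ran 560 bp past its end.

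The 7 H3K27me3 peaks of the MYC window all lay upstream, in a run of 16.5 kb from 128713268 to 128729774. The nearest (128729274 to 128729774) ended 18.5 kb before the start, and the widest (128726245 to 128727303) had 1059 bp. The commonest width of 501 bp was that of 5 of the 7, and of 57.8% of the whole H3K27me3 list. None of them overlapped another list, as was so for 86.4% of all H3K27me3 peaks. The single peak labelled H3K9me3 (128742976 to 128743476) lay between this run and the gene, 4839 bp before the start, and also stood alone. Downstream of the gene, H3K27ac had 4 peaks, at 128756753 to 128757253 and, 44.6 kb or more from the start, at 128792942 to 128793442, 128795014 to 128795642 and 128799924 to 128800424. The last 2 overlapped H3K4me2, the first of them on the widest H3K4me2 peak of the window (128794898 to 128795807, 910 bp).

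The unequal sides of MYC went far beyond the window. This was looked at over 500 kb on each side, a distance chosen after the peaks had been seen. Upstream, H3K27ac had 1 peak, the one beside the start, and H3K36me3 had 0, whereas downstream they had 44 and 45 and covered 9.41% and 8.94%. H3K4me2 had 9 upstream and 46 downstream peaks. H3K27me3 and the list labelled H2A.Z lay on the other side. H3K27me3 had 58 peaks upstream (8.32% covered) and 0 downstream, and the list labelled H2A.Z had 36 upstream (4.42%) and 0 downstream. The nearest downstream H3K27me3 peak was 732 kb from the start, the nearest downstream peak labelled H2A.Z 1020 kb, and the nearest upstream H3K36me3 peak 1180 kb. The list labelled H3K9me3 had 3 peaks on each side.

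Along the downstream side of MYC the marks did not peak together. H3K4me2 and H3K27ac covered most at 100 to 150 kb from the gene (31.6% and 22.5%), and H3K27ac covered 21.5% at 200 to 250 kb. H3K36me3 covered most further out, with 24.4% at 300 to 350 kb, and had no peak from 400 to 500 kb. Upstream, H3K27me3 covered most at 200 to 250 kb (21.3%) and the list labelled H2A.Z at 250 to 300 kb (9.55%). Of 5506 consecutive tiles of 500 kb, 0.763% held at least 44 H3K27ac peaks, 0.872% at least 46 H3K4me2 peaks and 2.22% at least 45 H3K36me3 peaks. At least 58 H3K27me3 peaks were in 5.1% of these tiles, and at least 36 peaks labelled H2A.Z in 8.01%. These shares concern the denser side only. How often a tile holds no peak, or neighbouring tiles are this uneven, was not computed. In the RefSeq order of genes on the later assembly GRCh38, the long noncoding RNA gene PVT1 follows MYC, and CASC11 and POU5F1B precede it.

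Over the whole 500 kb, the other loci did not show this pattern of H3K27ac on one side and H3K27me3 on the other. Some lists were uneven there too, and CCND1 showed the mirrored pattern over part of the distance. CCND1 had 22 upstream and 14 downstream H3K27ac peaks over the same 500 kb, and 4 upstream and 27 downstream H3K27me3 peaks. The denser H3K27me3 side of CCND1 was therefore downstream. At 100 to 250 kb, a zone picked after its values were seen, H3K27ac had 16 peaks upstream (8.68% covered) and 0 downstream. In that zone H3K27me3 had 0 peaks upstream and 19 downstream (8.54%). H3K36me3 was on one side of CCND1 as it was of MYC, with 0 peaks upstream (the nearest 595 kb from the start) and 5 downstream. CDKN1A had 10 and 5 H3K27ac peaks and 4 H3K27me3 peaks on each side, and H3K36me3 covered 18.8% upstream and 7.14% downstream. CDKN1B had 10 H3K27ac peaks on each side and no H3K27me3. The CDKN2A and CDKN2B interval had 3 and 2 H3K27ac peaks, its only H3K27me3 peaks were 2 upstream, and H3K36me3 covered 0.971% upstream and 4.38% downstream.

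**Figure D2:**
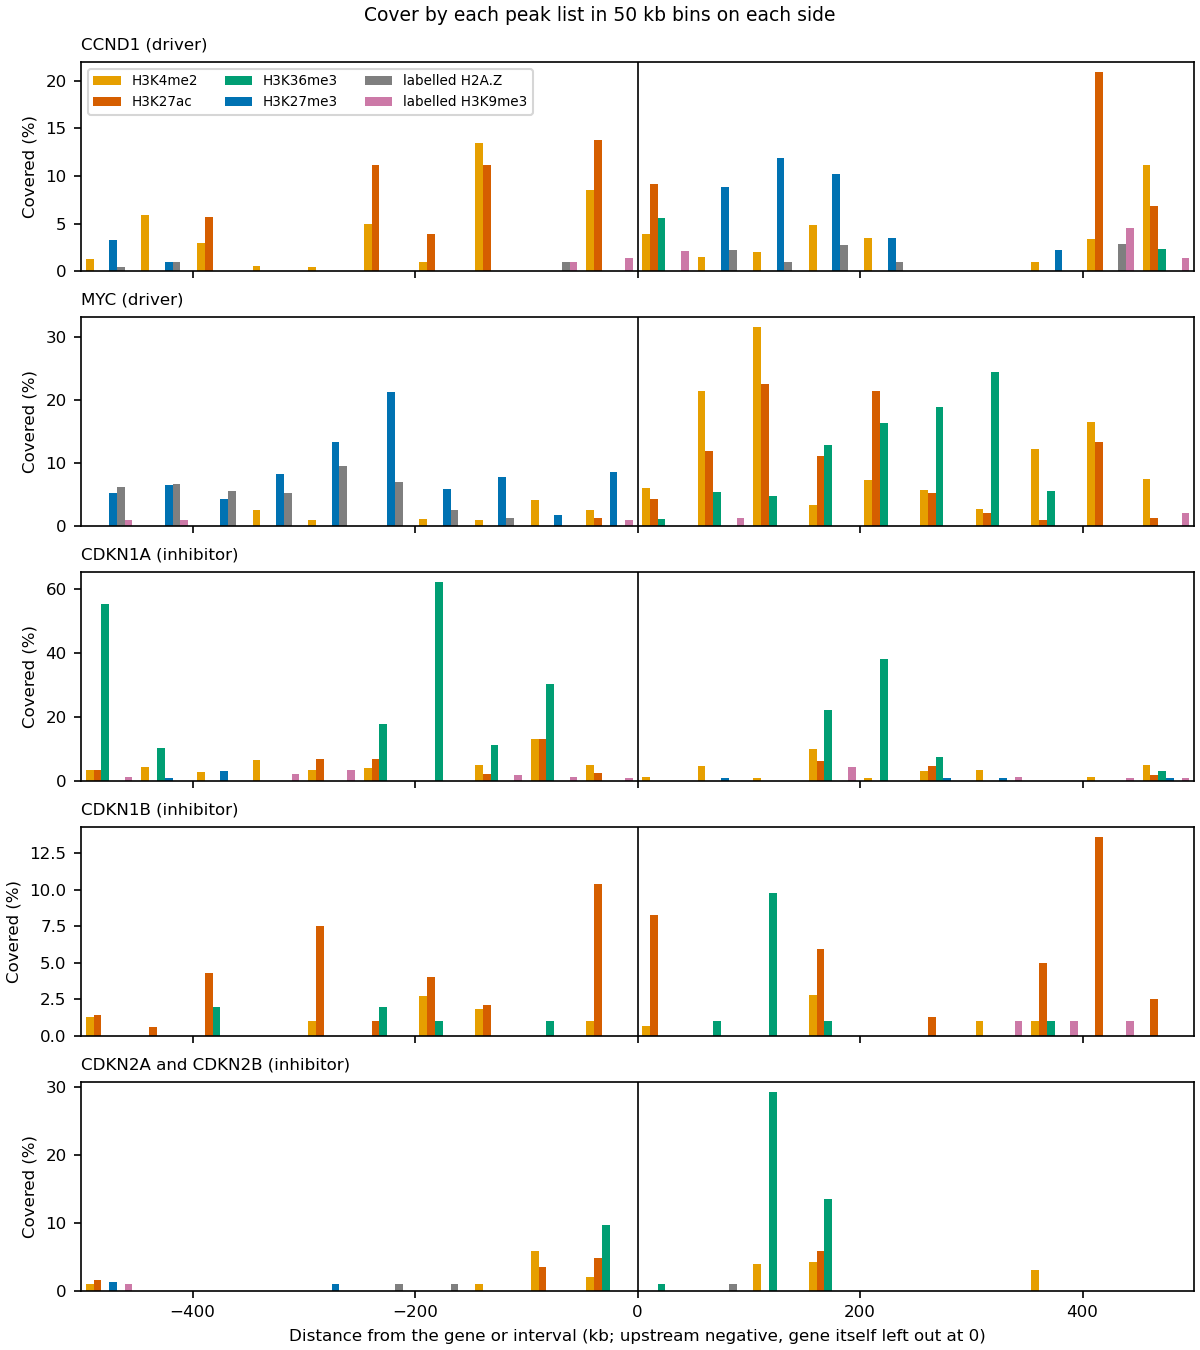
Share of each 50 kb bin covered by each list (bars, %), from 500 kb upstream to 500 kb downstream of each gene or interval, which is itself left out at 0; the vertical scales differ between panels. At MYC, H3K27me3 and, from 100 kb outward, the list labelled H2A.Z lie on the left side. H3K36me3 and most of the H3K4me2 and H3K27ac cover lie on the right.

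Of the inhibitors, CDKN1B had the broadest acetylation at its start, and it exceeded that of either driver in width. The gene lies on chromosome 12 (12870302 to 12875305). One H3K27ac peak (12866403 to 12874501, 8099 bp) spanned the start, from 3899 bp upstream, and only 154 of 31453 H3K27ac peaks were at least as wide. After a gap of 506 bp a second peak (12875008 to 12879444, 4437 bp) ran 4139 bp past the end of the gene. Together they covered 89.9% of the gene body, where H3K27ac covered 41.2% at CCND1 and 0% at MYC. The third (12848976 to 12850254, 1279 bp) lay 20 kb upstream.

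H3K4me2 at CDKN1B was narrow beside this. Its 3 peaks each had 501 bp (12869130 to 12869630, 12872192 to 12872692 and 12875136 to 12875636), and each lay on H3K27ac. The only H3K36me3 peak (12871985 to 12872722, 738 bp) was inside the acetylated peak, 1683 bp after the start. Of the 7 peaks in the window, 1, of H3K27ac, overlapped no other list. In the whole lists 65.4% of H3K4me2, 36.1% of H3K27ac and 90.0% of H3K36me3 peaks overlapped none. The share over all 285703 peaks was 72.8%, which also counts the lists without a peak in this window. H3K27me3 was farther from this gene than from the other 4 loci: the nearest H3K27me3 peak was 2670 kb from the start, and the nearest peak labelled H2A.Z 2660 kb, both downstream.

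CDKN1A was the most thinly covered, with 9 peaks over 5.25% of its window, and 7 of the 9 overlapped no other list. These were 4 of 5 H3K4me2 peaks, both H3K27ac peaks and the only H3K36me3 peak. The whole lists gave 65.4%, 36.1% and 90.0%, and counts this small do not set the window apart from them. The gene lies on chromosome 6 (36646459 to 36655109). H3K27ac flanked the start without covering it: 1 peak (36644986 to 36646171, 1186 bp) ended 288 bp before it, and the other (36649750 to 36650398, 649 bp) began 3291 bp after it. No H3K4me2 peak lay within 10 kb of the start. The nearest (36634730 to 36635533, 804 bp) was 10.9 kb upstream and carried the only peak labelled H3K9me3 of the window (36634934 to 36635434). The H3K36me3 peak (36652520 to 36653283, 764 bp) covered 8.83% of the gene body, against 47.2% at CCND1 and 50.3% at MYC.

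In the CDKN2A and CDKN2B interval, on chromosome 9 (21967751 to 22009312), H3K27ac lay well inside the interval and not at the CDKN2B start, where H3K4me2 had a narrow peak. Both genes are read toward lower coordinates, so the CDKN2B start is the upper end of the interval. H3K27ac had 4 peaks in a run of 9.45 kb, 13.0 to 22.4 kb downstream of that start. The widest (21992826 to 21996337, 3512 bp) overlapped the widest H3K4me2 peak (21995242 to 21996529, 1288 bp), and of the other 3 (1291, 501 and 819 bp), those at 21986893 and 21991177 overlapped H3K4me2 and that at 21989336 overlapped H3K36me3. The remaining H3K27ac peak (22040342 to 22042793, 2452 bp) lay 31.0 kb upstream of the CDKN2B start and stood alone. Near that start itself there was 1 H3K4me2 peak (22009899 to 22010399, 501 bp), which ended 587 bp before it, and no H3K27ac peak within 10 kb. The starts of CDKN2A on hg19 were not used here, so the run was not assigned to 1 of them.

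H3K36me3 had more peaks here than in the other 4 windows. It had 12 of 501 to 1148 bp, which covered 6.12% of the window. Of the 12, 11 overlapped no other list, near the 90.0% of all H3K36me3 peaks. Of these, 7 lay upstream of the CDKN2B start, the farthest and widest (22056570 to 22057717, 1148 bp) 47.3 kb away. The peak nearest to the start (22004876 to 22005916, 1041 bp) was 3396 bp downstream of it. In RefSeq, on GRCh38, the antisense long noncoding RNA gene CDKN2B-AS1 lies in this stretch on the opposite strand, and these lists carry no strand. The nearest H3K27me3 peak to the CDKN2B start was 281 kb upstream, and the nearest labelled H2A.Z peak 112 kb downstream.

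**Figure D3:**
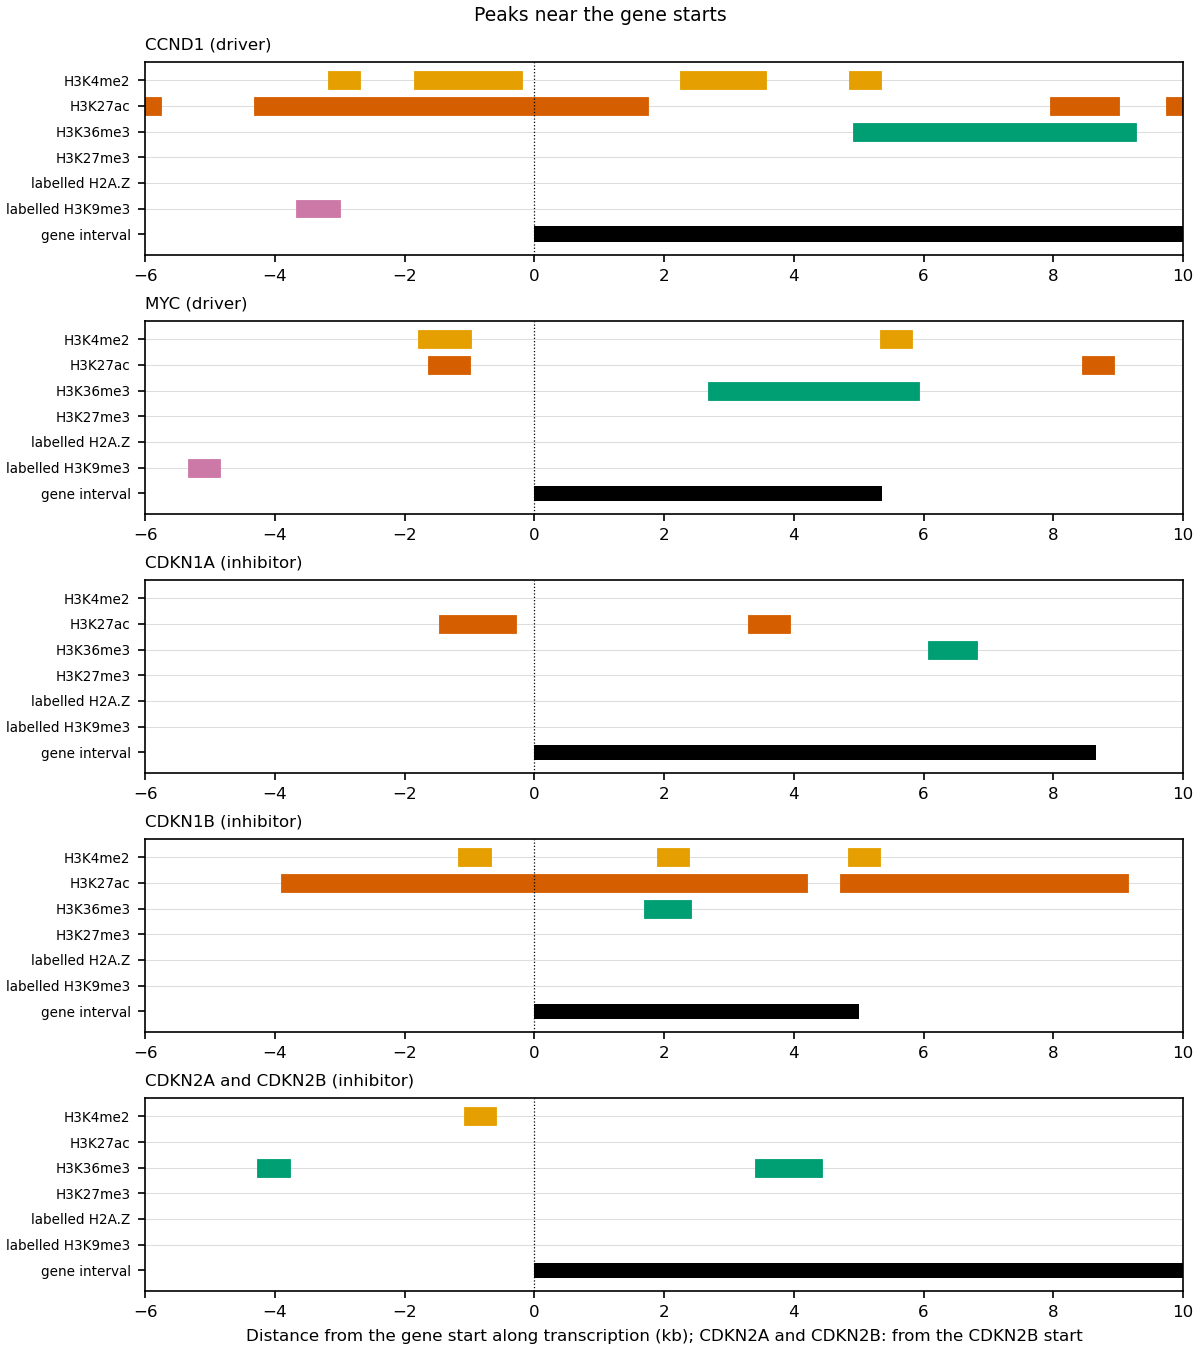
Peaks from 6 kb upstream to 10 kb downstream of each start (distance in kb along transcription); boxes are peaks of each list and the black bar is the gene or interval, which runs past the right edge at CCND1 and at CDKN2A and CDKN2B. H3K27ac crosses the start at CCND1 and CDKN1B and ends before it at MYC and CDKN1A. The panel of CDKN2A and CDKN2B is drawn from the CDKN2B start and holds no H3K27ac.

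The 5 starts used here, with CDKN2B for the joint interval, fell into 3 kinds, of which 2 held a driver and an inhibitor each. H3K27ac crossed the start at CCND1 and CDKN1B, where it covered 100% of the 2.5 kb upstream. It lay upstream only within 2.5 kb at CDKN1A (47.4% of those 2.5 kb) and MYC (25.4%). At CDKN2B it covered 0%. H3K4me2 covered 66.4% of the 2.5 kb upstream at CCND1, 32.4% at MYC, 20% at CDKN1B and at CDKN2B, and 0% at CDKN1A. No H3K4me2, H3K36me3 or H3K27me3 peak, and none of the lists labelled H2A.Z and H3K9me3, covered the base of any of these 5 starts. The starts of CDKN2A were not examined, so nothing is said of them here.

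Reference promoter sequences are shown for the 3 inhibitor genes whose starts were used here. H3K27ac covered the start at CDKN1B, flanked it at CDKN1A, and had no peak at that of CDKN2B. The sequences are from RefSeq on GRCh38.p14, each from 250 bases before to 50 after the annotated start, read 5′ to 3′ along the gene. The peaks are on hg19, and the match of each RefSeq start to the start used for the peaks was not checked. Promoters of 4 of the 6 member genes were matched in the RefSeq table (CDKN1A, CDKN1B, CDKN2A and CDKN2B). Capitals mark GGGCGG, the core of the GC box, on either strand.
CDKN1B (chr12:12717118-12717417, plus strand): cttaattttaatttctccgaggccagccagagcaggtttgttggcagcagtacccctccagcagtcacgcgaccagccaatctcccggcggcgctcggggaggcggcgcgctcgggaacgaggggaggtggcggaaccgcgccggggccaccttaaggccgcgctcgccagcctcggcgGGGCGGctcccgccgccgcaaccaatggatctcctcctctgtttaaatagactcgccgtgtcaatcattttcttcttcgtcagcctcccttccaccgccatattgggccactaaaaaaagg
CDKN1A (chr6:36678464-36678763, plus strand): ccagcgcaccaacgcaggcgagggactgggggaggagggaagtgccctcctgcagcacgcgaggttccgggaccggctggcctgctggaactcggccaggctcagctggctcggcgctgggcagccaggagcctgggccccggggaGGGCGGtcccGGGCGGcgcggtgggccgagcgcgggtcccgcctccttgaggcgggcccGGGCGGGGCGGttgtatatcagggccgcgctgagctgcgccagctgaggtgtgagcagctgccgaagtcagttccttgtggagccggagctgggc
CDKN2B (chr9:22009256-22009555, minus strand): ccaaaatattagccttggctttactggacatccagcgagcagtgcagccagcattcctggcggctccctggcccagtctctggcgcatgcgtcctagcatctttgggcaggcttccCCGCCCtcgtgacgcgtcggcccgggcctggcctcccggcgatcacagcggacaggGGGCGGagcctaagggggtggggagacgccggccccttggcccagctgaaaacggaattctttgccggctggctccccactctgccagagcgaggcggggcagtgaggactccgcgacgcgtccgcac

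All 3 sequences held more CG than the median of 14 of 35116 RefSeq promoters, with 29 CG dinucleotides each at CDKN1B and CDKN1A and 25 at CDKN2B. Of all promoters, 75.8% held fewer CG than CDKN1B and CDKN1A and 68.0% held fewer than CDKN2B. CDKN1A held 4 matches of GGGCGG, CDKN2B 2 and CDKN1B 1, and 45.0% of all promoters held at least 1. The matches at CDKN1A began 104, 94, 45 and 40 bases before the start, and the last 2 overlap by 1 base. At CDKN1B the match began 71 bases before the start, and at CDKN2B 134 and 78 bases before it. The promoter with the widest acetylated peak held the fewest matches of the 3. CDKN2B, without such a peak at its start, held fewer than CDKN1A, and a relation of matches to acetylation was not tested. TATAAA (11.5% of all promoters), CACGTG (7.26%), TGACGTCA (1.85%), TTTCGCGC (0.515%) and TTTGGCGC (0.652%) were searched on both strands and had no match in any of these 3, nor in the 2 CDKN2A promoters, of which 1 held GGGCGG in 2 places. Of 13 other genes of the pathway, promoters of 8 were matched, and 9 of their 13 promoters held GGGCGG. Those 13 had 0 to 47 CG, with a median of 29, so the 3 shown are not set apart from them in CG. Peaks at these other genes were not analysed here.

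Setting the drivers beside the inhibitors, the drivers held a larger share of the H3K4me2 and H3K27ac peaks than of the length, most of it at CCND1, and the size of this excess depended on the window and on which peaks were counted. The driver windows made up 38.1% of the length. They held 59.4% of the H3K4me2 peaks (19 of 32, exact 95% interval 40.6 to 76.3) and 63.0% of the H3K27ac peaks (17 of 27, 42.4 to 80.6). These Clopper-Pearson intervals cover counting error only, with peaks taken as independent, and neighbouring peaks are not. Without the CCND1 window the shares were 35.0% (15.4 to 59.2) and 33.3% (11.8 to 61.6), intervals that include the 22.9% of the remaining length that MYC made up. For H3K4me2 the share was 50% both with flanks of 20 kb (9 of 18, 26.0 to 74.0) and with flanks of 100 kb (29 of 58, 36.6 to 63.4), and these intervals include the drivers' 36% and 39.0% of the length. Among H3K27ac peaks of more than median width, drivers and inhibitors held 8 each (24.7 to 75.3). For H3K36me3 the drivers held 30.0% (6 of 20, 11.9 to 54.3), an interval that includes their share of the length. Their H3K36me3 cover was larger with flanks of 50 kb, at 5.64% of the driver and 2.86% of the inhibitor windows. It was also larger with flanks of 20 kb (12.5% and 3.31%). With flanks of 100 kb the order was reversed (3.59% and 4.02%), and without the CCND1 window the values were close (3.09% and 2.86%). The share of peaks rested on the 12 peaks of the CDKN2A and CDKN2B interval, without which it was 75.0% (6 of 8).

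Per 100 kb, H3K27ac had 7.77 peaks at the drivers (exact Poisson interval 4.53 to 12.4) and 2.82 at the inhibitors (1.35 to 5.18). H3K4me2 had 8.69 (5.23 to 13.6) and 3.66 (1.95 to 6.26). These intervals, too, take neighbouring peaks as independent. Cover by H3K27ac differed less, at 9.05% of the driver and 6.82% of the inhibitor windows, since the inhibitors had fewer but wider peaks, with a median of 1285 bp against 636 bp. The loci of the groups overlapped in H3K27ac cover: CCND1 had 15.0%, CDKN1B 13.2%, CDKN2A and CDKN2B 6.06%, MYC 2.63% and CDKN1A 1.69%. H3K4me2 covered 5.9% of the driver and 2.32% of the inhibitor windows, and its cover put both drivers first, with 7.53% at CCND1 and 4.15% at MYC, followed by 2.86% at CDKN1A, 2.56% at CDKN2A and CDKN2B and 1.43% at CDKN1B. H3K36me3 covered 8.01% at CCND1, 6.12% at CDKN2A and CDKN2B, 3.09% at MYC and 0.703% at each of CDKN1A and CDKN1B. No replicate error can be attached to these orders.

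**Figure D4:**
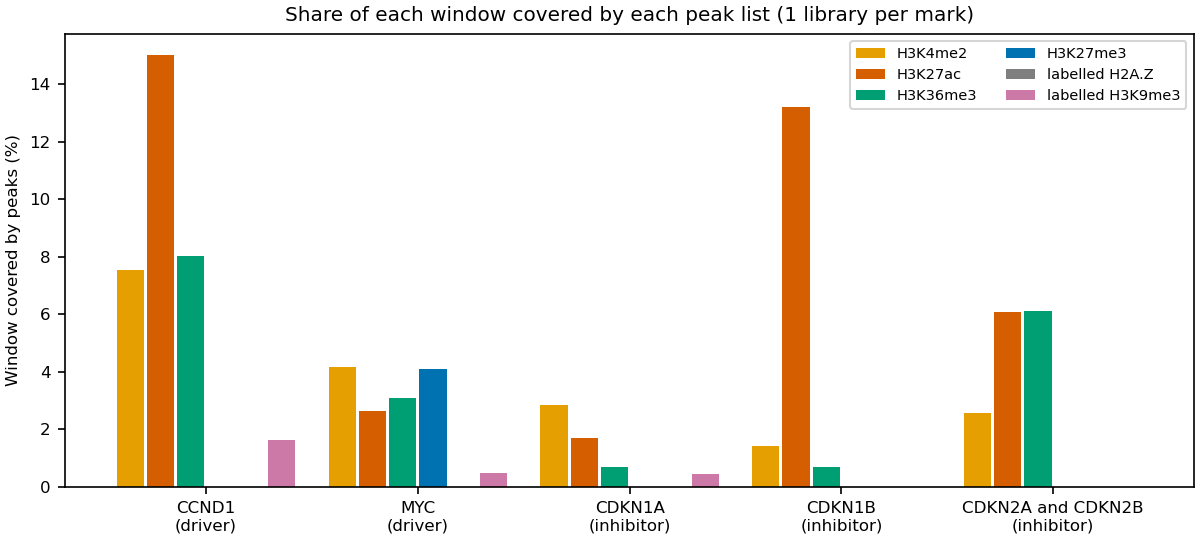
Share of each window covered by each list (bars, %, 1 library per mark, so no error bars). H3K27ac is highest at CCND1 (15.0%) and CDKN1B (13.2%), and H3K27me3 has a bar at MYC only (4.08%).

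For the lists found less often, all 7 H3K27me3 peaks were in a single run of 16.5 kb at MYC. CCND1, the other driver, held 0, as the inhibitors did. Pooled, this is 3.2 per 100 kb of the driver windows (1.29 to 6.59) and 0 of the inhibitor windows (upper bound 1.04). These Poisson intervals take peaks as independent, which the peaks of a single run are not, so they do not set drivers apart from inhibitors. The list labelled H3K9me3 had 4 peaks at the drivers and 1 at an inhibitor, too few to set a share apart from the length (exact interval 28.4 to 99.5). For the list labelled H2A.Z, the 0 peaks allow up to 1.69 per 100 kb at the drivers and 1.04 at the inhibitors by counting error alone.

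Marks met each other at these loci as follows. H3K27ac overlapped 13 of 32 H3K4me2 peaks (40.6%, exact interval 23.7 to 59.4), where the whole H3K4me2 list gave 25.7%. Counted the other way, 11 of 27 H3K27ac peaks met H3K4me2 (40.7%, 22.4 to 61.2), where the whole H3K27ac list gave 48.8%. Both intervals include the share of the whole list. Of H3K36me3 peaks, 5 of 20 met H3K27ac (25%, 8.66 to 49.1), and 4 of 20 met H3K4me2 (20%, 5.73 to 43.7), against 6.61% and 4.86% in the whole list. At the drivers 3 of 6 H3K36me3 peaks met H3K27ac (11.8 to 88.2%) and at the inhibitors 2 of 14 (1.78 to 42.8%), and these intervals overlap. All 3 at the drivers were in the CCND1 window. H3K27me3 shared no base with any other list in the 5 windows, and H3K36me3 shared none with the list labelled H3K9me3. In the whole lists 11.8% of H3K27me3 peaks met the list labelled H2A.Z, which had no peak in these windows to meet. The other overlaps were rare in the whole lists too. Of H3K27me3 peaks, 1.2% met H3K4me2, 1.13% the list labelled H3K9me3, 0.0171% H3K27ac and 0.0062% H3K36me3. Of H3K36me3 peaks, 0.0609% met the list labelled H3K9me3. With only 7 H3K27me3 peaks in the windows, 0 overlaps allow a share of up to 41.0% by counting error. Of the 91 peaks, 39 (42.9%) had the width of 501 bp, where the whole lists held 38.4 to 66.8% at that width. Wider than 2 kb were 8: 6 of the 27 H3K27ac peaks and 2 of the 20 H3K36me3 peaks. The share of the whole lists above 2 kb was not computed, but nearby widths bound it. Of all H3K27ac peaks, 9.27% had at least 2452 bp and 17.7% at least 1713 bp. Of all H3K36me3 peaks, 14.0% had at least 3257 bp and 22.9% at least 1943 bp. These counts are too small to set the windows apart.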

How the data were processed

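The data were 6 deposited peak lists from chromatin immunoprecipitation and sequencing, 1 per mark, of the 7 samples of the series. The tools named, per the submitters' processing notes, are HOMER 4.2 and Bowtie2 2.1.0, and the build is hg19 (GRCh37). How peaks were called, whether against the input, and at what depth is not given in the sources used here. Each deposited file holds peak positions without a height, enrichment or other score, so only position and width could be used. Copy number was not corrected here.

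Windows were the hg19 gene intervals plus 50 kb. A peak was counted with at least 1 bp inside. Cover used merged peaks clipped to the window. The analysed genome (2772.7 Mb) left out spans of 1 Mb or more without any peak. Coordinates are 1-based. The text names the widest peak of each list and window, the peak nearest to the start, and all where there were 3 or fewer; other peaks named (within-gene and flanking peaks of runs) were chosen after their values were seen. The members and lists were chosen with earlier results of these data known. Coverage counting was tested on simulated data. Alternatives were flanks of 20 and 100 kb, peaks wider than the list median, 50% of a peak inside, merging within 1 kb, each window left out, and tiles of 100 and 140 kb. Tiles with 3 lists were added after seeing the data. Python 3.11.15, numpy 2.4.6, pandas 2.3.3 and scipy 1.17.1 were used.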

Additional observations from a re-analysis of the deposited data

How the results depend on the processing

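The share of peaks at the drivers stayed inside its exact interval under every alternative that kept all 5 windows, for H3K4me2, H3K27ac, H3K36me3 and H3K27me3, but that interval did not always leave out the drivers' share of the length. For H3K4me2 the interval came to include the length share with flanks of 20 kb (50%, 26.0 to 74.0, beside 36%) and 100 kb (50%, 36.6 to 63.4, beside 39.0%), among wide peaks (66.7%, 34.9 to 90.1), after merging (56.7%, 37.4 to 74.5, both beside 38.1%), and without CDKN1B (45.7 to 82.1 beside 46.6%) or CDKN2A and CDKN2B (49.8 to 86.2 beside 50.6%). For H3K27ac it did so among wide peaks (50%, 24.7 to 75.3) and without CDKN1A (46.5 to 85.1 beside 47%), and with flanks of 20 kb it barely left it out (60.0%, 36.1 to 80.9, beside 36%). Leaving out CCND1, after which the intervals of both also included the length share, gave 35.0% for H3K4me2, 33.3% for H3K27ac and 6.67% for H3K36me3, beside a length share of 22.9%, and leaving out CDKN2A and CDKN2B gave 75.0% for H3K36me3, beside 50.6%; the alternative itself removes the peaks of that window. For the list labelled H3K9me3 the share was 100.0% among peaks wider than the median (2 of 2) and without CDKN1A (4 of 4), because its only inhibitor peak dropped out. With flanks of 100 kb, H3K27me3 had 14 peaks at the drivers and 1 at the inhibitors. No share exists for the list labelled H2A.Z, or for H3K27me3 without MYC, since 0 peaks remain. Tiles of 100 and 140 kb put the background between 36.4 and 42.0% for the list labelled H2A.Z. No paired analysis was possible because each mark has 1 library. Depth is unknown and most peaks have 501 bp or more, which limits the resolution.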
